A study of Mus musculus with 3 samples.

Results

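Heart RNA of mice with 1 mutant copy of Rbm20 was compared with that of wild-type mice at 12 weeks of age, by RNA-seq. The comparison rests on 2 of the 3 libraries, 1 per genotype, and the homozygote library is set beside it to show whether its values lay on the same side of the wild-type. The comparison was defined by its columns: of 469293 exonic parts in the table, 149762 had at least 50 inclusion plus exclusion reads in both libraries, and of 52071 genes, 13284 had a mean of at least 1 RPM, reads of the gene per 1000000 reads of all genes. PSI (percentage spliced in) is the share of transcripts that hold an exonic part, calculated from reads that include it and reads that skip it. Where 3 values follow each other, they are those of wild-type, heterozygote and homozygote, in that order.

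All mice had the C57BL/6 background. The heterozygote carried the I538T knock-in allele of Rbm20, made with Cas9 and a donor strand, on 1 chromosome and the homozygote on both. With 1 library per genotype, no test between genotypes was possible, and how many hearts went into a library was not given in the labels. The study speaks of PSI averaged over mice, whereas the table holds a single column per genotype, and which applies could not be settled. The values below describe 2 libraries, and their intervals (from exact Clopper-Pearson bounds, at the 95% level) cover counting error only. Intervals of PSI differences combine the bounds of both libraries by a square-root rule (Newcombe) and are not exact themselves. A part was counted as different when its PSI differed by at least 20 percentage points, and a gene when log2 of the ratio of (RPM + 1) reached 1 in either direction.

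RBM20 is an RNA-binding protein of heart and skeletal muscle nuclei. It binds introns of transcripts for sarcomere and calcium-handling proteins and mostly represses the inclusion of the neighbouring exons. Titin is its best-known target, and mutations of RBM20 are a cause of cardiomyopathy in humans.

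The libraries held 149633524, 157178099 and 157990953 inclusion reads. Heart muscle genes were abundant in each, with Myh6, the main myosin heavy chain of mouse heart, at 8690, 10633 and 11223 RPM. The Y-linked gene Ddx3y was read in all 3 libraries (45.8, 52.4 and 44.5 RPM). The median share of a gene's reads in the 5′ part of its exonic length, over 4901 genes, was 49.6%, 49.1% and 49.98%. Rbm20 itself was at 42.6, 41.5 and 46.2 RPM, so that its level was nearly the same in the 2 libraries compared (0.975-fold, interval 0.940 to 1.01). Globin RNA took 9.79%, 3.67% and 12.1% of the reads.

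Camk2d, Trdn, Picalm, Syne1, Cacna2d1, Lrrfip2, Map4k3, Evl and Ptk2 held short coding exons whose PSI differed between the heterozygote and the wild-type. In each, the skipping junctions lay within the gene, the length keeps the reading frame, and the counting interval of the difference excluded 0. Exons of other genes met these conditions too, and those shown are examples chosen after their values were seen. The exon is in capitals and 12 bases of the spliced transcript on either side are in lower case, 5′ to 3′, from the GENCODE M21 transcripts (GRCm38).
Camk2d, 60 bases, chr3:126805857-126805916, plus strand: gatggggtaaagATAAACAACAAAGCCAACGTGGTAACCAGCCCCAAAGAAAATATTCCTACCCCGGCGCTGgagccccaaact
Trdn, 30 bases, chr10:33433701-33433730, plus strand: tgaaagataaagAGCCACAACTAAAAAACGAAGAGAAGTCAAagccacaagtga
Picalm, 24 bases, chr7:90194273-90194296, plus strand: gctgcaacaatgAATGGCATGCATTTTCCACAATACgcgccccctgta
Syne1, 69 bases, chr10:5045266-5045334, minus strand: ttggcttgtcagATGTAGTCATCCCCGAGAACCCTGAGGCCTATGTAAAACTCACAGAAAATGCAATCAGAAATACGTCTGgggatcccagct
Cacna2d1, 21 bases, chr5:16341990-16342010, plus strand: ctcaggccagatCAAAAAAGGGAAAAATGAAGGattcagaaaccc
Lrrfip2, 42 bases, chr9:111173081-111173122, plus strand: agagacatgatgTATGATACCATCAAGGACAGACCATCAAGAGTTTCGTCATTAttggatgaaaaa
Map4k3, 63 bases, chr17:80629286-80629348, minus strand: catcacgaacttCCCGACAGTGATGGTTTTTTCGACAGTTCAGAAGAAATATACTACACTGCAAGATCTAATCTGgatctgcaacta
Evl, 63 bases, chr12:108683348-108683410, plus strand: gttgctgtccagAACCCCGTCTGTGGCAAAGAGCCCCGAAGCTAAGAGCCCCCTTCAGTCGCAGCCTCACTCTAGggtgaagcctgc
Ptk2, 9 bases, chr15:73211987-73211995, minus strand: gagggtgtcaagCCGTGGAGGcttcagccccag
The first 4 of these exons had higher PSI in the heterozygote and the other 5 lower PSI. Their share of G and C bases ranged from 33.3% in Cacna2d1 to 77.8% in Ptk2.

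In the heterozygote, 810 exonic parts had higher PSI than in the wild-type and 554 had lower PSI, which is 0.541% and 0.37% of the parts measured. They lay in 655 of 14567 genes, or 4.5%. The counting interval of the difference excluded 0 in 719 of the higher and 484 of the lower parts. Many of these parts had skipping junctions that reached beyond their gene, and 198 lay in overlapping genes. With only parts of 1 gene, junctions within that gene and an interval without 0, the count was 237 higher and 228 lower, or 0.346% of 134302 parts, in 373 genes (2.56% of the genes). Of these 465 parts, 139 were coding only, 101 held 3′ UTR, 125 held 5′ UTR and 98 were noncoding. The 134302 parts were not broken down in the same way, so whether these kinds were more frequent here is not known.

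The shares differed little between pairs of genotypes. Among 143400 parts with at least 50 reads in all 3 libraries, 1215 (0.847%) passed the size rule between heterozygote and wild-type, 1239 (0.864%) between homozygote and wild-type, and 1254 (0.874%) between homozygote and heterozygote. How many of the differences stem from the allele and how many from 1 library against another cannot be told apart in this design.

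In Camk2d and in parts of Ttn the heterozygote lay between the wild-type and the homozygote. Camk2d encodes the delta chain of calcium/calmodulin-dependent kinase II, and its 60-base exon was measured as parts of 5 and 55 bases. The 55-base part had 25 inclusion and 257 exclusion reads, against 112 and 178 and then 332 and 92 in the mutants. Its PSI was 6.38%, 30.6% and 71.7%. The difference of the heterozygote was 24.2 percentage points (interval 18.5 to 30.04). Of 69 Camk2d parts measured, the other 67 stayed inside the size rule, while the level of the gene was 126, 124 and 142 RPM.

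Titin had 390 measured parts, of which 2 were higher and 7 lower in the heterozygote. Among the higher ones, a 267-base exon of the spring region (chr2:76802231-76802497) had a PSI of 34.9%, 59.3% and 93.1%. The other was the 6520-base last exon of a short annotated titin transcript (chr2:76913944-76920463), with 20.96%, 41.1% and 64.9%. It was skipped by 170, 72 and 24 reads, against 2324, 2590 and 2286 inclusion reads. PSI weighs reads by the number of positions a part offers, and without that correction the difference of this long part was 4.11 points, against 19.6 for the 267-base exon. Both parts were thus ordered by the number of mutant copies. In all, 44 titin parts differed by at least 10 points between heterozygote and wild-type, and 103 differed by at least 20 points between homozygote and wild-type.

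The 7 lower titin parts rested on few reads. They belonged to a run of 54 parts between 76753284 and 76789319 on chromosome 2 with equal exclusion counts, 0, 14 and 2 reads. The part with the largest difference, of 105 bases, had 61, 42 and 44 inclusion reads and a PSI of 100%, 62.3% and 92.4%. Without the correction for positions, the differences of the 7 parts ran from −25.0 to −6.93 points. Among the other study genes, none of the 29 Ldb3 parts and none of the 124 Ryr2 parts passed the rule. Their differences ranged from −1.89 to 2.95 points in Ldb3, a Z-disc protein, and from −7.05 to 8.70 in Ryr2, the calcium release channel. In the homozygote, too, none of these parts differed by at least 20 points from the wild-type. The study reports changed exons of both genes in homozygotes, by PSI from its RNA-seq and by RT-PCR. Whether those exons are among the parts measured here was not tested.

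**Figure D1:**
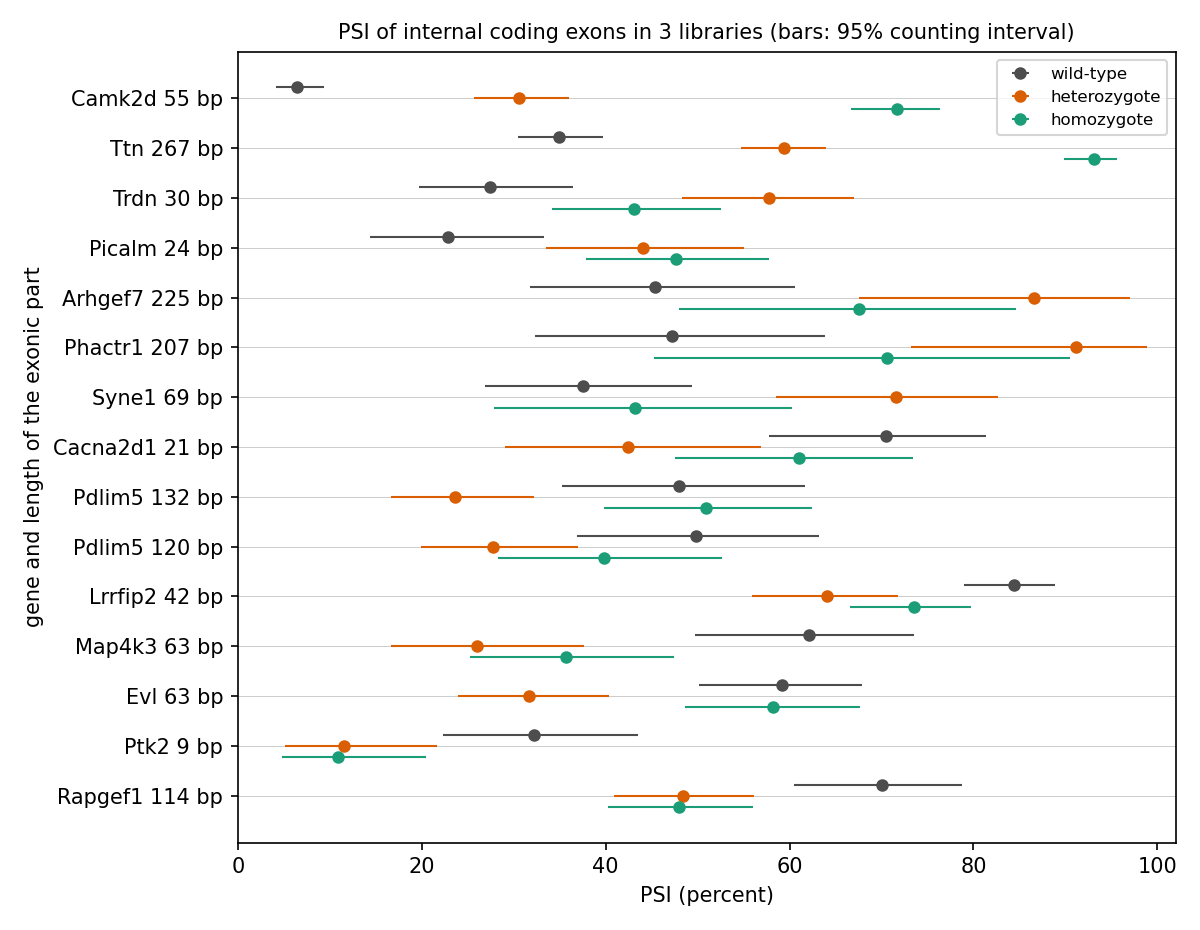
PSI in percent (horizontal axis) of 15 coding parts (vertical axis, gene and length) in the wild-type, heterozygote and homozygote library. Bars are 95% counting intervals. The parts of Camk2d and Picalm are internal in some annotated transcripts and terminal in others. In Camk2d and Ttn the heterozygote (30.6% and 59.3%) lies between the other libraries; in Evl and the 132-base exon of Pdlim5 the homozygote (58.2% and 50.9%) lies beside the wild-type, and in Ptk2 and Rapgef1 beside the heterozygote (10.9% and 48.0%).

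Among genes of calcium handling, 3 of 28 had a part past the rule, with 3 parts higher and 1 lower. This is 10.7% of the genes and 0.637% of their parts, beside 4.5% of all genes and 0.911% of all parts. Beside Camk2d these were Trdn and Atp2b1. Triadin (Trdn) anchors calsequestrin to the calcium release channel, and its 30-base exon had 35 inclusion and 75 exclusion reads, against 76 and 45 and then 57 and 61 in the mutants. Its PSI was 27.5%, 57.8% and 43.1%, highest in the heterozygote, with a difference of 30.3 points from the wild-type (interval 17.3 to 42.3). Atp2b1, a calcium pump of the plasma membrane, had an 87-base coding part at 71.4%, 39.0% and 49.9%, a difference of −32.4 points (interval −49.99 to −11.8).

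Of 26 genes of action potential channels, 2 had a part past the rule (7.69% of the genes and 0.556% of their parts), Cacna2d1 among them. Cacna2d1 encodes the alpha2delta subunit that carries voltage-gated calcium channels to the membrane. Its 21-base exon had 50 inclusion and 18 exclusion reads, against 24 and 28 and then 40 and 22 in the mutants. This gave a PSI of 70.5%, 42.4% and 61.0%, lowest in the heterozygote (difference −28.1 points, interval −45.3 to −8.83).

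Z-disc and intercalated disc genes with a part past the rule were 4 of 31, or 12.9% of the genes and 0.840% of their parts. Pdlim5 is a PDZ-LIM protein that binds alpha-actinin at the Z-disc. Its exons of 132 and 120 bases both had lower PSI in the heterozygote. The first (chr3:142281852-142281983) was at 48.0%, 23.7% and 50.9%, and the second (chr3:142284797-142284916) at 49.8%, 27.7% and 39.8%. The intervals of the differences were −39.7 to −8.99 points and −37.6 to −6.18 points. These exons are apart from each other in the gene but not independent, since a transcript can hold or skip both. The other 3 genes, Lmo7, Pdlim1 and Myot, differed in terminal exons that hold 5′ UTR. In Lmo7, a LIM protein of cell junctions, an 84-base part was at 84.3%, 48.8% and 53.4%, the last from only 17 inclusion and 9 exclusion reads. Pdlim1 was at 62.0%, 82.5% and 54.3%, and its interval began just above 0, at 0.717 points. Myot was at 93.3%, 62.3% and 85.0%, with only 5 exclusion reads in the wild-type. Unlike those of Lmo7 and Pdlim1, its skipping junctions were not confined to the gene.

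Of 33 transcripts known as targets of muscleblind proteins, another family of splicing regulators in muscle, 6 had a part past the rule (5 parts higher and 1 lower). In Picalm, which assembles clathrin coats, the 24-base exon had 20 inclusion and 57 exclusion reads, against 42 and 45 and then 54 and 50 in the mutants. Its PSI was 22.8%, 44.0% and 47.7%, so that both mutants lay above the wild-type and close to each other. A 225-base exon of Arhgef7, an exchange factor for small GTPases, was at 45.4%, 86.6% and 67.6%, the last from 47 reads. Lrrfip2 was lower, with a 42-base exon at 84.4%, 64.1% and 73.5% (difference −20.2 points, interval −29.6 to −10.8). Insr, the insulin receptor, and Dtna, a dystrophin partner, differed in untranslated or noncoding parts with at most 12 exclusion reads in any library. Without the correction for positions, the differences were 7.01 points in Insr and 6.22 in Dtna, and 25.2 in Arhgef7.

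Counts over the gene lists were read against the background. Of 2004 measured parts in RBM20 targets, 20 passed the rule (0.998%), and of 1048 sarcomere parts, 17 (1.62%), most of them in Ttn and Mybpc3, beside 0.911% of all parts. Among 43 RBM20 target genes 8 had such a part, or 18.6%, and among 33 muscleblind targets 18.2%, where 4.5% of all genes had one. Genes with many parts have more chances to pass, so these shares describe the lists only. In splicing factors, 1 of 1270 parts passed. It was a 684-base noncoding part of Clk1, a kinase that phosphorylates SR proteins, at 37.6%, 58.8% and 41.4% (difference 21.2 points, or 10.8 without the correction for positions).

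In-frame coding exons differed in other genes as well. Apart from the runs in Ttn and Mybpc3, 42 internal coding parts under 300 bases and a multiple of 3 passed with junctions within the gene, in 39 genes, 18 higher and 24 lower. How many measured parts were of this kind was not counted. The share that passed is therefore unknown, and the count does not say whether such exons differed more often than other parts. Of the 35 with at least 50 reads in the homozygote, 30 lay on the same side of the wild-type there. In 6 of these 30 the homozygote was farther from the wild-type than the heterozygote. Of all 35, the homozygote was within 10 points of the wild-type in 16. These parts were picked by their heterozygote difference, which by itself favours a smaller difference in the homozygote.

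The 69-base exon of Syne1, which encodes the nuclear envelope protein nesprin-1, had a PSI of 37.5% in the wild-type and 71.6% in the heterozygote (difference 34.1 points, interval 16.4 to 49.5), and 43.2% in the homozygote from 39 reads. Phactr1, a regulator of phosphatase and actin, had a 207-base exon at 47.3% and 91.2%, and at 70.6% in the homozygote from 29 reads. The 63-base exon of Evl, an actin regulator of the Ena/VASP family, was skipped more in the heterozygote alone, with 59.2%, 31.7% and 58.2% (difference −27.5 points, interval −39.1 to −15.0). The 126-base, 219-base and 108-base exons of Mical2, an enzyme that oxidizes actin, had lower PSI together. The first was at 88.8%, 65.3% and 83.5%, the second at 83.1%, 62.6% and 78.0% and the last at 80.3%, 57.5% and 80.2%, so that the homozygote was near the wild-type.

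The 9-base exon of Ptk2, the focal adhesion kinase, had 27 inclusion and 53 exclusion reads, against 8 and 57 and then 8 and 61 in the mutants, for a PSI of 32.3%, 11.6% and 10.9%. A 114-base exon of Rapgef1, an exchange factor for Rap GTPases, was at 70.1%, 48.4% and 48.0%. The 63-base exon of Map4k3, a kinase upstream of stress-activated pathways, was at 62.1%, 26.0% and 35.7% (difference −36.0 points, interval −50.9 to −19.1). A 6-base part of Fgfr1, a fibroblast growth factor receptor, was at 81.0%, 49.8% and 56.8%. A 102-base exon of Tacc2, a centrosomal protein, was at 97.4%, 74.3% and 73.8%. In these 5 genes the homozygote was nearer to the heterozygote than to the wild-type, and the levels of the genes lay between −0.06 and 0.23 of the wild-type on the log2 scale.

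Mybpc3, the cardiac myosin-binding protein C, differed over most of its length in the heterozygote alone. Of 37 parts, 29 were lower by at least 10 points and 5 passed the rule. Over those 29 parts, the PSI of the wild-type lay between 85.8% and 95.5% and that of the homozygote between 88.0% and 96.2%, while the heterozygote ran from 64.3% to 84.1%. These parts were picked by a heterozygote PSI at least 10 points lower, so a gap from the wild-type was partly built in. Not all of the remaining Mybpc3 parts were lower in the heterozygote. Over the 29 parts, the exclusion reads per part were 226 to 353 in the wild-type and 278 to 608 in the homozygote. In the heterozygote they were 1207 to 1565. Such parts can be skipped by the same reads and are not independent. Without the correction for positions, the differences of the 5 parts ran from −20.9 to −12.2 points. The level of the gene was 1695, 2055 and 2394 RPM.

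**Figure D2:**
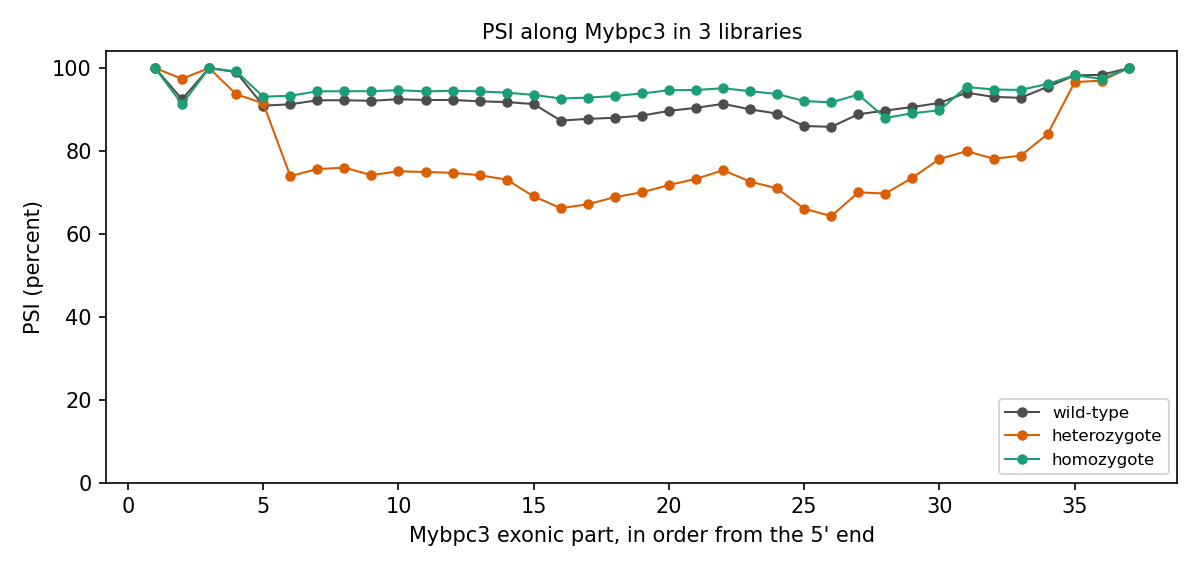
PSI in percent (vertical axis) of the 37 measured Mybpc3 parts in order from the 5′ end (horizontal axis), with 1 line per library. From part 6 to part 34 the heterozygote runs between 64.3% and 84.1%, below the wild-type and the homozygote.

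Myh7, the slow myosin heavy chain, is a near-identical neighbour of Myh6, so reads may be split between them and its values are uncertain. A 62-base part had 83 inclusion and 169 exclusion reads, against 107 and 0 and then 169 and 692 in the mutants, for a PSI of 24.9%, 100% and 14.2%. A 139-base part was at 65.7%, 40.02% and 37.6%.

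Some of the largest differences came from a junction that was nearly absent from 1 library. In 142 parts of 31 genes, the heterozygote had at most 2% of the exclusion reads found in each of the other libraries, which had at least 100. The same held for the wild-type in 42 parts of 19 genes and for the homozygote in 57 parts of 23 genes. Whether such junctions were found alike in each library when the reads were aligned was not tested, so their PSI may not compare the transcripts themselves. In Mpc1, a subunit of the mitochondrial pyruvate carrier, a 4-base part had nearly equal inclusion reads (860, 798 and 835) but 19192, 83 and 18832 exclusion reads. Its PSI was therefore 4.17%, 90.3% and 4.12%, while the gene was at 2207, 2223 and 2075 RPM. Map1lc3b, a marker of autophagosomes, had 923, 2 and 847 exclusion reads over a 17-base 3′ UTR part, and Ak1, adenylate kinase, had 264, 0 and 376 over a 101-base part.

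The opposite also occurred. Ndufa5, a subunit of respiratory complex I, had a 45-base coding part that no read skipped in the wild-type or homozygote, against 2571 reads in the heterozygote, where 11783 reads included it (PSI 77.3%). Ndufa4, a subunit of cytochrome c oxidase, had a 21-base part at 40.1%, 67.7% and 68.8%, so that there the wild-type stood apart. The Mpc1 and Ndufa5 parts are shown in capitals within their transcripts, since their skipping reads were all but confined to some libraries.
Mpc1, 4 bases, chr17:8296527-8296530, plus strand: ctatctcatgagTACTcacttctggggc
Ndufa5, 45 bases, chr6:24527273-24527317, minus strand: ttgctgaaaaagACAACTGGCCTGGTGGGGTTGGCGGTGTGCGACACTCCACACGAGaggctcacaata

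The top of the ranking was held by parts whose junctions reach beyond the gene. Among 15 parts from different genes with the largest rise in PSI and 15 with the largest fall, only Mpc1 had its junctions within the gene. A stretch of chromosome 11 from 101445439 to 101767358 held 83 called parts with the same exclusion counts, 338, 0 and 432 reads, in 9 genes, Dhx8, Nbr1, Rpl27, Arl4d, Rnd2, Ifi35, Tmem106a, Rdm1 and Gm11625. Of these genes, Nbr1 was at 66.9, 68.3 and 76.9 RPM and Rpl27 at 234, 263 and 261 RPM.

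A cluster of zinc finger genes on chromosome 2 (Gm14288, Zfp966, Zfp965 and others) was crossed by reads of the wild-type alone. Its Gm14288 part had 812, 0 and 0 exclusion reads. Glutathione transferase genes had no common pattern, with 0, 869 and 2 exclusion reads over one Gstm1 part, 304, 966 and 999 over another and 134, 2 and 3 over parts of Gsta1. Histone genes differed likewise, with 0, 766 and 230 exclusion reads over an H2bc21 part, 12, 227 and 3 over Hist1h4m and 23, 0 and 0 over H2ac5-ps. These families hold near-identical copies, and their values are uncertain for that reason. In all, 156 called parts of 53 genes shared their exclusion counts with parts of at least 3 genes.

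The homozygote was on the same side of the wild-type as the heterozygote for 921 of the 1215 called parts with enough reads, or 75.8%. By direction, these were 568 of 726 higher parts and 353 of 489 lower parts. In 331 and 144 of them the homozygote also passed 20 points. Both differences are taken from the same wild-type library, so an odd value there moves them together, and this share is given as a description. Within genes and with intervals without 0, the share was 330 of 406 parts. There the homozygote lay between the wild-type and the heterozygote in 270 parts, beyond the heterozygote in 60, on the other side of the wild-type in 66 and at the same PSI as the wild-type in 10. The median of the homozygote difference was 0.486 of the heterozygote difference. The parts were picked by their heterozygote difference, which by itself favours a smaller difference in the homozygote, so these counts are a description too. The 55-base part of Camk2d and the 2 higher parts of Ttn, in which the homozygote lay beyond the heterozygote, were thus among the minority. In the 7 lower Ttn parts the homozygote was nearer to the wild-type.

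Gene levels differed in fewer genes. In the heterozygote 28 of 13284 genes were higher (0.211%) and 130 lower (0.979%), and the median log2 ratio over all genes was 0.01. The middle 90% of genes lay between −0.48 and 0.40. The homozygote had the same direction in 19 of the 28 higher genes and 104 of the 130 lower genes, again against the same wild-type library. Among the lower genes, the homozygote was within 0.5 (log2) of the heterozygote in 84 and within 0.5 of the wild-type in 38. Among the higher genes these counts were 10 and 12.

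Genes of red blood cells were lower in the heterozygote and not in the homozygote. Of 11 measured, 9 passed the rule, all 11 were below 0, and the median log2 ratio was −1.45 in the heterozygote, against 0.29 for the homozygote. Their summed level was 99056, 37140 and 122789 RPM. The alpha globin gene Hba-a1 was at 25537, 9403 and 32174 RPM, and Alas2, which starts heme synthesis in red cells, at 547, 157 and 656 RPM. The heterozygote was thus 0.287-fold of the wild-type for Alas2 (interval 0.282 to 0.291). Slc4a1, the anion exchanger of the red cell membrane, was at 17.9, 1.57 and 19.2 RPM. Bpgm, which makes 2,3-bisphosphoglycerate, was at 151, 39.5 and 189 RPM. Fewer red cells in the tissue and less RNA per red cell cannot be told apart in bulk samples.

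Genes with the same pattern outside that list included Slc25a37, the mitochondrial iron importer of red cell precursors (36.1, 8.45 and 32.2 RPM), Tent5c (65.7, 12.3 and 68.6 RPM) and Car2, a carbonic anhydrase (32.4, 8.87 and 36.6 RPM). Of the 38 lower genes with the homozygote near the wild-type, 9 were in the red blood cell list. Others were of different kinds. Rsad2, an interferon-induced gene, was at 53.4, 21.7 and 60.8 RPM, although 23 of 24 interferon genes stayed inside the rule. S100a9, a neutrophil gene, was at 3.94, 0.858 and 3.77 RPM, beside 2.38, 1.95 and 3.41 RPM of its partner S100a8. Ifi27l2b had 1715, 0 and 1748 reads. Against a floor of 3 reads per library it was at least 595-fold lower. Its longest exonic part alone gave a log2 ratio of −0.54. That part had no heterozygote reads either, so the added 1 RPM limits this value, which does not show a weaker fall.

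**Figure D3:**
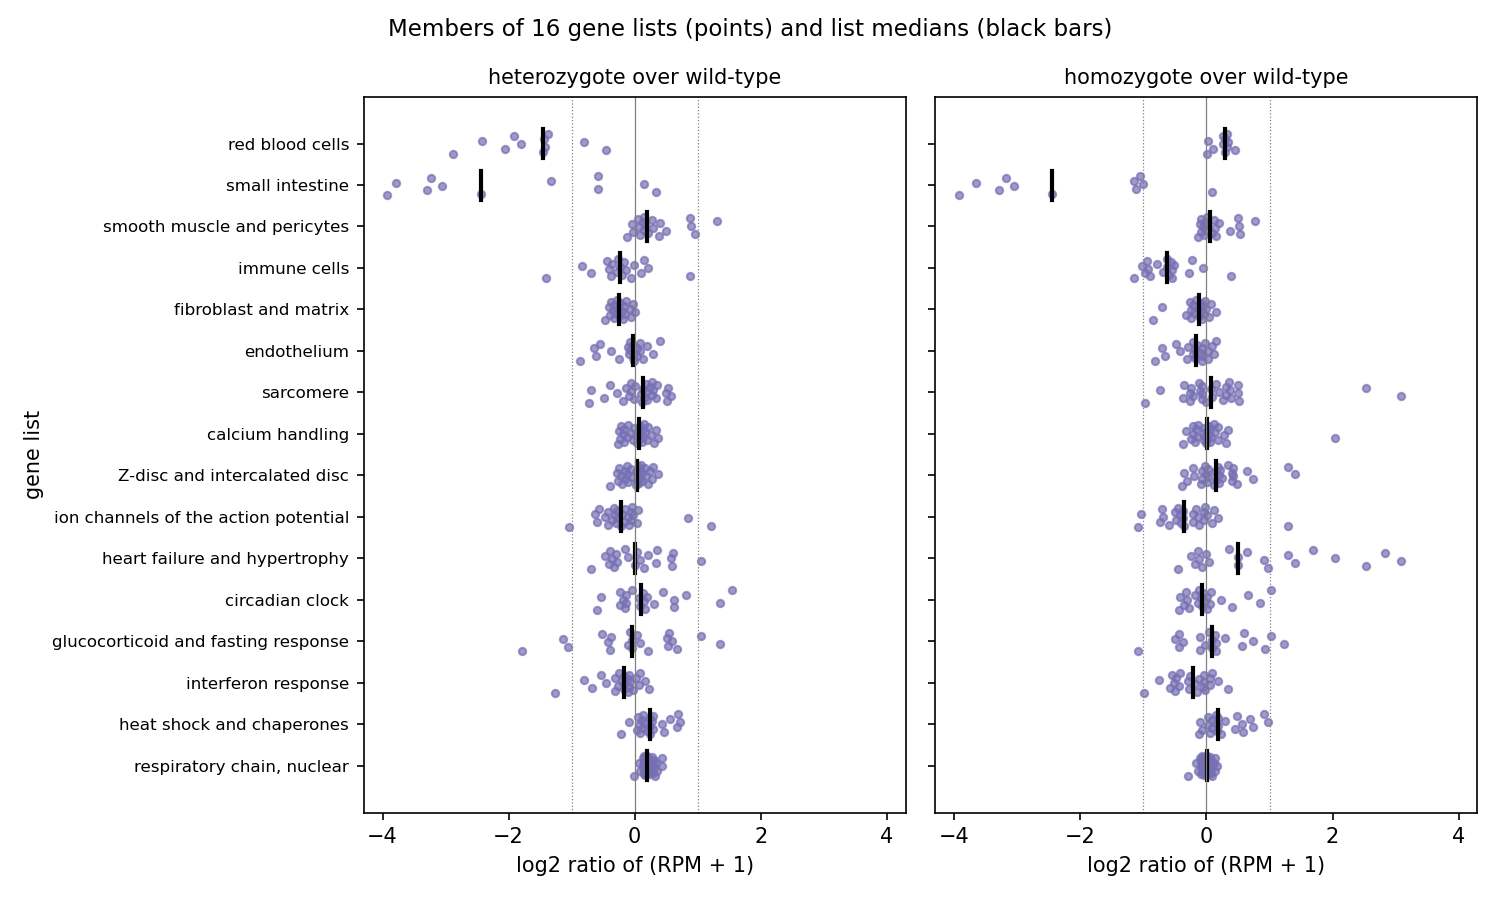
Log2 ratios of (RPM + 1) to the wild-type (horizontal axis) for the measured members of 16 gene lists (vertical axis), with each gene as a point and the list median as a black bar, heterozygote on the left and homozygote on the right. Dotted lines mark −1 and 1. Red blood cell genes have a median of −1.45 on the left and 0.29 on the right, small intestine genes are low on both sides, and most other lists are centred near 0.

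Most measured genes of the small intestine were higher in the wild-type library than in either mutant. Of 24 markers, 11 were measured and 7 passed as lower, with a median of −2.43 in the heterozygote, against −2.45 for the homozygote. From the longest exonic part alone, the heterozygote median was −0.72. Genes without reads in that part, such as Reg3b, entered it as 0, so this median is no check on the size of the fall. Reg3b, an antimicrobial lectin, had 1856, 0 and 0 reads. Fabp1, a fatty acid-binding protein of gut and liver, had 1671, 0 and 12 reads, and Apoa4, an apolipoprotein, 952, 0 and 0. Against a floor of 3 reads per library these were at least 644-fold, 580.2-fold and 331-fold lower in the heterozygote. Lyz1 and Lgals4 did not share this pattern, at 51.0, 64.5 and 22.4 RPM and 58.9, 65.4 and 28.8 RPM. The summed level of the list was 181, 138 and 59.98 RPM.

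Of the 130 lower genes, 58 (44.6%) were unnamed models (Gm with a number) and 29 (22.3%) were processed pseudogenes, beside 10.9% and 3.93% of all genes measured. This grouping was made after the values were seen. In 53 of those Gm genes the homozygote was near the heterozygote. The most abundant, Gm10800, was at 255, 46.1 and 42.8 RPM. On chromosome 9, 9 protein-coding Gm models, among them Gm10718 and Gm10719, were between −2.37 and −1.70. These models hold near-identical copies, and the reads cannot be assigned to 1 locus with certainty.

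In these libraries, Nppb was higher in the heterozygote and higher again in the homozygote. Nppb, the precursor of brain natriuretic peptide, was at 165, 343 and 535 RPM. The heterozygote was 2.08-fold of the wild-type (interval 2.05 to 2.12). Nppa, the atrial peptide, had the same order without passing the rule, at 94.9, 146 and 179 RPM (log2 ratio 0.61). Nmrk2, a nicotinamide riboside kinase, was at 5.04, 8.07 and 10.9 RPM and also stayed inside it. By quantitative PCR on hearts of the same age, the study found no upregulation of Nppa or Nppb in the mutants. For Nmrk2 it reports a rise by RNA-seq but no significant difference by quantitative PCR. The Nppb interval covers counting error only, and whether the order of these genes holds across mice was not tested. Of 21 genes of heart failure and hypertrophy, only Nppb passed the rule in the heterozygote, and the list median was 0.01 (−0.17 from the longest exonic part alone).

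Casq1, Mybpc2 and Myot, skeletal or Z-disc genes named by the study, stayed inside the rule in the heterozygote. Casq1 was at 6.90, 7.73 and 31.4 RPM, Mybpc2 at 6.55, 10.3 and 42.7 RPM and Myot at 49.8, 44.96 and 133 RPM. Acta1, skeletal alpha-actin, was likewise at 166, 209 and 1422 RPM. In these genes the homozygote stood apart. The matrix genes Col1a2 and Mmp2 were slightly lower in the heterozygote, at 185, 148 and 189 RPM and 74.0, 56.4 and 62.4 RPM.

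**Figure D4:**
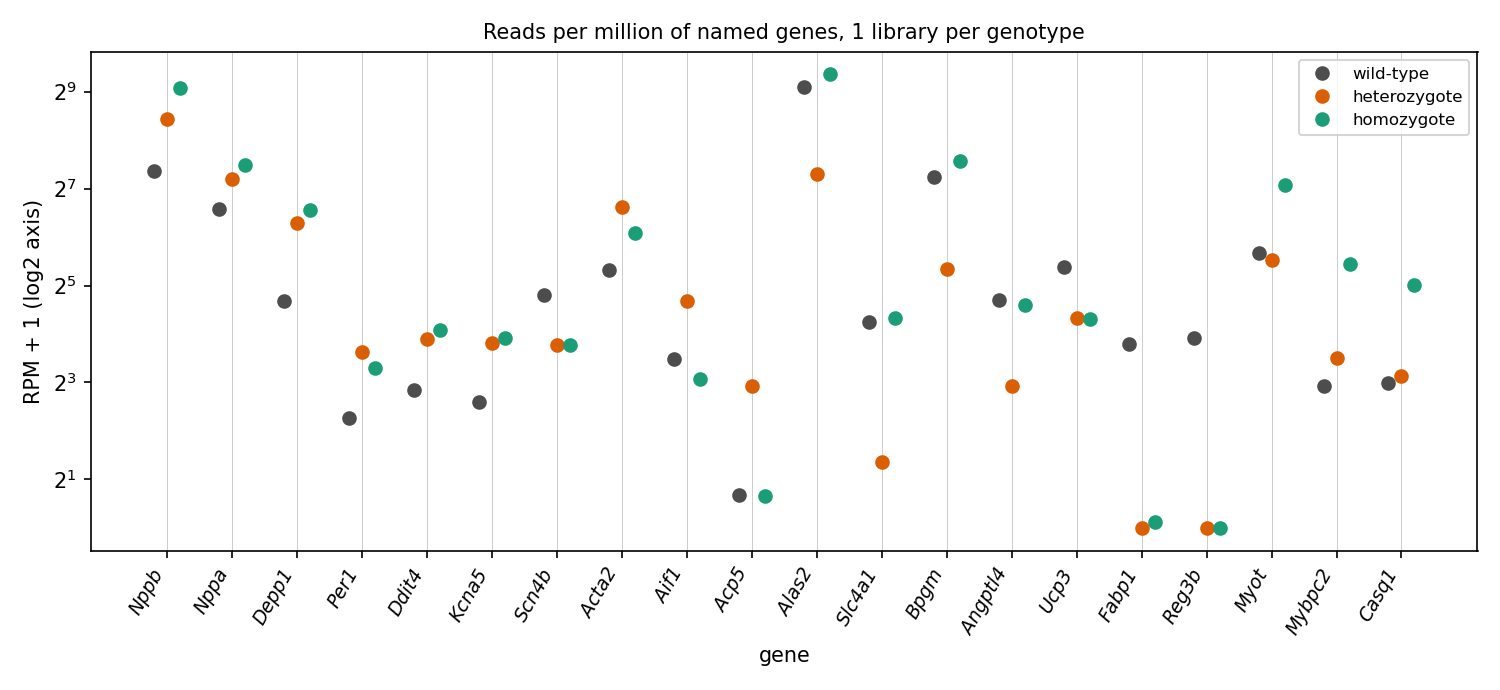
RPM + 1 on a log2 axis (vertical) for 20 named genes (horizontal) in the wild-type, heterozygote and homozygote library. Nppb, Nppa, Depp1 and Ddit4 are lowest in the wild-type, Alas2, Slc4a1 and Bpgm are lowest in the heterozygote, Fabp1 and Reg3b are near 0 RPM in both mutants, and Myot, Mybpc2 and Casq1 are highest in the homozygote.

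Genes that respond to fasting, glucocorticoids and the clock differed without a common direction. Depp1, a target of FOXO factors, had the largest rise among genes with a mean of at least 5 RPM, at 24.6, 77.5 and 93.9 RPM (3.15-fold, interval 3.03 to 3.28). Ddit4, an inhibitor of mTOR signalling, was at 6.18, 13.9 and 15.8 RPM. The clock genes Per1 and Per2 were higher, at 3.83, 11.4 and 8.87 RPM and 0.764, 4.16 and 2.18 RPM. Arntl, which drives Per transcription, was at 20.9, 13.5 and 20.03 RPM and stayed inside the rule, as did Dbp at 24.5, 38.3 and 24.8 RPM. Angptl4, an inhibitor of lipoprotein lipase, was lower in the heterozygote alone (25.0, 6.56 and 23.1 RPM), but its longest exonic part alone gave a log2 ratio of −0.14. Ucp3, a mitochondrial carrier that rises with fatty acid supply, was lower in both mutants (40.7, 19.0 and 18.7 RPM), and Txnip, a thioredoxin inhibitor that follows glucose, was at 418, 191 and 321 RPM. Of 21 genes in the glucocorticoid and fasting list, 2 were higher and 3 lower. The hour of tissue collection and the feeding state were not given in the sources used here, and their part in these values was not tested.

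Ion channel genes lay mostly below the wild-type. Of 27 measured, 23 were below 0, with a median of −0.21 in the heterozygote, against −0.36 for the homozygote, and 1 passed the rule in each direction. From the longest exonic part alone, the heterozygote median was −0.11. Kcna5, the potassium channel of the ultrarapid current, was higher in both mutants, with 666, 1787 and 1944 reads (2.58-fold, interval 2.36 to 2.82). Scn4b, a beta subunit of the sodium channel, was lower in both, at 27.1, 12.7 and 12.7 RPM. For both genes the heterozygote and homozygote were nearly equal, and the wild-type stood apart.

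Of 20 smooth muscle and pericyte genes, Acta2 alone passed the rule. Acta2, smooth muscle alpha-actin, was at 38.8, 97.1 and 66.6 RPM (2.50-fold, interval 2.42 to 2.59). Tagln (15.5, 31.0 and 22.3 RPM), Myh11 (17.5, 33.0 and 25.4 RPM) and Cnn1 (1.92, 4.44 and 3.23 RPM), also contractile genes, had the same order and stayed just inside it. Of the list members 17 were above 0, with a median of 0.19. The summed level of the list was highest in the homozygote (1788, 1931 and 1989 RPM), and whether more vessel wall was in the tissue was not tested.

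None of the 19 measured genes of the immune cell list was higher past the rule. Outside that list, and picked after their values were seen, 4 genes known from macrophages and other myeloid cells were higher in the heterozygote alone. Aif1 was at 10.2, 24.6 and 7.43 RPM, Lst1 at 3.44, 7.97 and 3.40 RPM, and Acp5, tartrate-resistant acid phosphatase, at 0.604, 6.59 and 0.576 RPM. Siglece had 262, 809 and 160 reads. Adgre1, a macrophage surface marker, had the same order but stayed inside the rule, at 17.6, 33.3 and 11.6 RPM. The markers Cd68 and Csf1r did not have it, with Cd68 at 18.3, 16.1 and 9.11 RPM and Csf1r, the growth factor receptor, at 41.9, 31.2 and 23.97 RPM. Of 19 immune genes measured, 15 were below 0 and the median was −0.23 in the heterozygote, against −0.63 for the homozygote. From the longest exonic part of each gene alone, the median of the heterozygote was on the other side, at 0.10.

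Other genes past the rule were of mixed kinds. Scgb1c1, a secretoglobin, was at 9.80, 24.2 and 13.6 RPM, Rtel1, a DNA helicase of telomeres, at 4.03, 9.46 and 8.80 RPM, and Cdk5rap1, which modifies mitochondrial tRNA, at 12.3, 25.6 and 22.8 RPM. The longest exonic part of Cdk5rap1 alone gave a log2 ratio of 0.04. Krt8, a keratin of epithelia and mesothelium, was lower at 3.19, 0.755 and 0.735 RPM (log2 −1.25, and −0.65 from the longest exonic part), while 9 of 10 mesothelium genes stayed inside the rule.

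The lists of sarcomere, calcium handling, respiratory chain, ribosomal, heat shock and matrix genes held no gene past the rule. Among 29 sarcomere genes the log2 ratios ran from −0.72 to 0.58 with a median of 0.13, and among 29 calcium handling genes from −0.26 to 0.37 with a median of 0.06. Respiratory chain genes were narrowly spread, with 38 of 39 above 0, a median of 0.19 in the heterozygote, against 0.00 for the homozygote. Ribosomal protein genes had a median of 0.21 with 20 of 21 above 0, and heat shock genes 0.24 with 21 of 23 above 0. Fibroblast and matrix genes lay on the other side, with 20 of 21 below 0 and a median of −0.25. From the longest exonic part of each gene alone, the median was 0.04 for sarcomere, −0.01 for calcium handling and 0.08 for ribosomal protein genes. RPM are shares of a total, and the globin share of the reads was lower in the same library; its part in these small shifts was not tested.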

How the data were processed

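RNA from hearts was made into libraries with the SMART-seq v4 and Nextera XT kits, which do not mark strand. The submitters' processing notes name Bowtie 1.1.1, TopHat2 2.0.14, Trimmomatic 0.32 and cutadapt 1.1, and the GRCm38 build. The authors deposited raw counts of inclusion and exclusion reads per exonic part, and PSI as a fraction, corrected for the number of read positions. The program that made the counts is not given in the sources used here. The deposited PSI columns of 3 libraries of another age and the 2 columns of PSI differences were not used.

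PSI was expressed in percent and differences taken as heterozygote minus wild-type. Inclusion counts were summed per gene over parts of 1 gene and divided by their total (130901126, 136355767 and 138857594 reads) to give RPM. Log2 ratios of (RPM + 1) understate the change of low genes. The rule for named genes took the 12 largest rises and 12 largest falls at a mean of at least 5 RPM, genes the study names, and list members past the rule. For exons it took the 15 largest rises and 15 largest falls, 1 part per gene with at least 50 reads in 3 libraries and a counting interval of the difference without 0, the parts past the rule in 7 lists, and parts of study genes. Other parts and genes in the text were chosen after their values were seen. The members, rules and all 37 gene lists were chosen with earlier results of these data known. Parts shared by overlapping genes were left out of gene sums. The scripts that apply the size rules were tested on simulated data, which says nothing about the spread between mice. TMM factors came from edgeR 4.0.16, and the other values from scipy 1.17.1, pandas 2.3.3 and numpy 2.4.6 under Python 3.11.15. Alternatives were other read minimums, sizes, units of counting, pseudocounts, filters and library sizes; those limited to junctions within genes and to parts under 1000 bases were added after the data were seen. Results for a few genes are not reported here.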

Additional observations from a re-analysis of the deposited data

How the results depend on the processing

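With 1 library per genotype, neither leaving out a replicate nor a paired fit was possible, and the spread between mice is unknown. Counts of parts higher, lower and on the same side in the homozygote were 810, 554 and 921. They were 1806, 1435 and 2126 with a minimum of 20 reads, 267, 143 and 285 with 200 reads, and 463, 233 and 458 with a size of 30 points. With adjoining parts joined, 504 were higher, and with junctions within the gene the counts were 289, 275 and 383. They stayed within 1.5 times of the main count without parts of overlapping genes, without correction for read positions, with intervals without 0 and with parts under 1000 bases. Counts of genes higher, lower and on the same side were 28, 130 and 123. They were 65, 272 and 290 with a pseudocount of 0.1 RPM, 7, 60 and 50 with a mean of at least 10 RPM, and 74, 203 and 232 from the longest exonic part alone. With library sizes without the 100 genes with most reads, 270 genes were lower and 259 on the same side. TMM factors and no filter on low values moved no count by over 1.5 times. No named gene changed direction under TMM or the smaller pseudocount; the longest part of Aif1, Reg3b and Sis held no reads in either library. Genes without reads in that part entered the list medians as 0. From the longest part alone, 12 of 36 list medians and 5 of 53 named genes moved and 9 named genes fell inside the rule, Ucp3, Rtel1, Lst1 and Slc5a1 among them. Of the named parts, 58 differences moved without the correction for read positions and 84 did not.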

Other observations

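Col3a1 and Tnni3 lie in exonic parts that overlapping genes share and were left out of the gene sums. Summed over those shared parts, Col3a1, a fibrillar collagen, was at 603, 396 and 523 RPM in wild-type, heterozygote and homozygote. Tnni3, cardiac troponin I, was at 12870, 15900 and 12374 RPM. The share of these reads that belongs to the overlapping gene is not known.

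In Mef2d, a transcription factor of muscle, 4 nearby parts of the last coding exons and the 3′ UTR were each skipped in the heterozygote by 30 reads, against 0 in the wild-type and at most 4 in the homozygote. The 121-base part was at 100%, 57.9% and 98.0%. The gene was at 53.4, 41.6 and 41.4 RPM.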
